A study of Mus musculus with 6 samples.

Results

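Transcripts of 10 chemokine and cytokine genes were followed in sorted heart stromal cells: Ccl2, Ccl7, Ccl11, Cx3cl1, Cxcl1, Cxcl12, Cxcl14, Il6, Il33 and Csf1. They were taken by symbol from the deposited gene reports, and all 10 were found among 26458 symbols. The cells were Thy1+HE- cells, sorted in 2 rounds from C57BL/6 mouse hearts taken 7 days after an operation. The operation was a sham procedure (3 libraries) or transaortic constriction (TAC, 3 libraries), in which the aorta is narrowed so that the heart pumps against a raised pressure. The study concerns activation and proliferation of cardiac fibroblasts under this load, and Thy1 is a surface glycoprotein found on many fibroblasts, but also on T cells. The labels use HE without explaining it. They name no mutation or transgene and give no age, and they do not say whether a library holds cells of 1 mouse or of several, so the p-values below measure the spread between these libraries, which may be technical.

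Chemokines are small secreted proteins that bind G protein-coupled receptors and draw leukocytes along a gradient. They are sorted into the CC, CXC and CX3C families by the spacing of their first cysteines. Stromal cells are a known source of several of them in the heart, along with interleukin 6 (Il6), which signals through the shared chain gp130, interleukin 33 (Il33), an alarmin kept in the nucleus, and colony stimulating factor 1 (Csf1), a survival factor of macrophages.

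Sham libraries held 1909337 to 2056097 counts on gene rows and TAC libraries 3351479 to 4207312, and 3 counts correspond to 0.713 to 1.57 CPM, the count scaled by library depth, of the unscaled library sum. Libraries of the same group differed by more than counting noise: the chi-square over genes, divided by its degrees of freedom, was 3.38 to 14.09 for every pair. This value does not tell technical from biological spread, and rows with very high counts can weigh heavily in it. By this value TAC replicate 3 stood furthest from its group, at 14.09 and 9.17 against 6.32 for the other TAC pair. The row LOC672857 took 3.83% of its counts and 1.04% to 1.78% of those of the other 5 libraries, and Lars2 took 1.34% against 0.445% to 0.868%. The part of these rows in that distance was not tested. All 10 fibroblast markers were detected in every library, and they summed to between 25424.2 and 41230.1 CPM. Of them, Col1a1, Col1a2 and Col3a1 rose and Pdgfra, Tcf21, Dcn, Ddr2 and Gsn fell, of which Dcn did not pass without TAC replicate 2. The 11 lymphocyte markers in the files summed to 2.0, 6.73 and 3.97 CPM in sham replicates 1, 2 and 3 and to 3.68, 3.73 and 9.62 CPM in TAC. None was high enough to test, and 4 of them, among them Cd3d, Cd3g and Cd79b, had 0 counts in all libraries.

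After TAC, 1 of the 10 genes rose, Cx3cl1, and 3 fell, Ccl11, Cxcl14 and Ccl7. The other 6, among them the abundant Cxcl1 and Il6, did not pass the test, which was edgeR's quasi-likelihood test at a Benjamini-Hochberg adjusted p under 0.05 over all 12612 genes tested. All 10 genes were above its low-count filter. Over all genes tested, 18.7% passed, 8.28% with a rise and 10.4% with a fall (1044 and 1309 genes). Under upper quartile scaling the counts were 1240 and 1139. The 10 genes were chosen with earlier results of these data known, so their 4 of 10 cannot be tested against the 18.7%. The groups did not overlap for 3 of the 10 genes, Cx3cl1 higher in TAC and Ccl11 and Cxcl14 lower, against 36.2% of all genes tested (17.7% higher and 18.5% lower). The median log2 fold change was -0.18 over the 10 genes and 0.01 over all genes tested. In such sorted bulk samples, fewer cells of a type and less RNA per cell cannot be told apart.

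**Figure D1:**
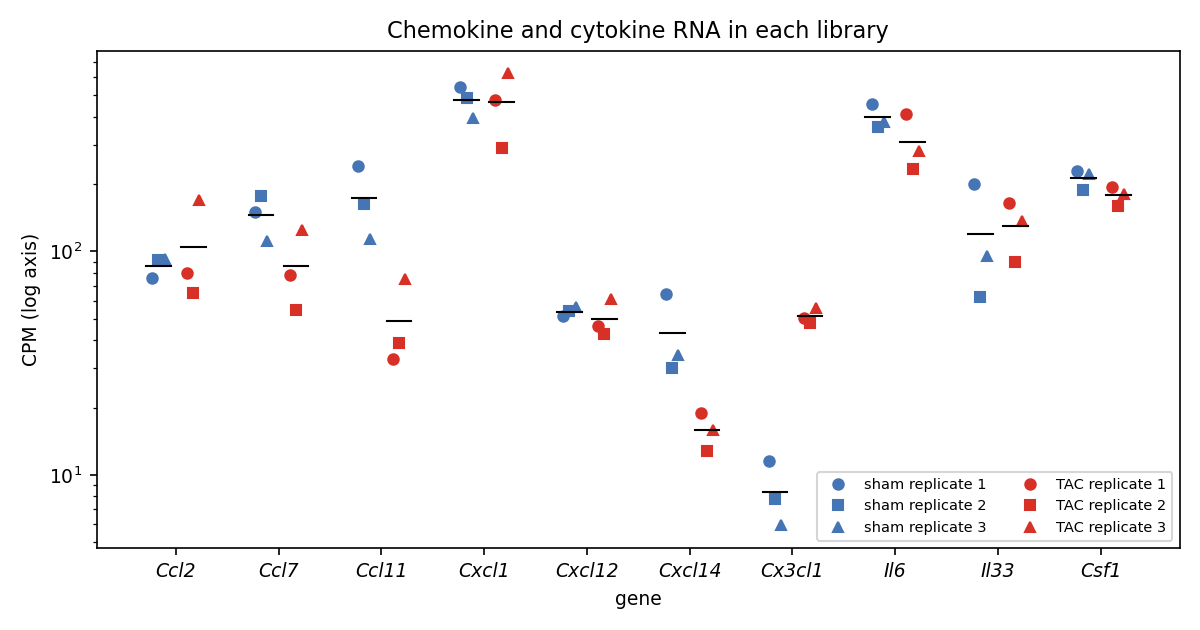
CPM of each gene in the 6 libraries on a log axis, with sham in blue, TAC in red, 1 symbol shape per replicate number and a black bar at each group mean. The TAC points of Cx3cl1 lie between 47.7 and 55.9 CPM, above all sham points, and those of Ccl11 and Cxcl14 lie below all sham points.

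Levels between genes were compared per length, as the deposited RPKM (counts divided by the length of the gene row and by the library's counted reads). By mean RPKM in sham, the order was Cxcl1 (540.0 ± 78.4, SD, n = 3), Il6 (368 ± 38.6), Ccl7 (184 ± 43.0), Ccl11 (176 ± 63.1), Ccl2 (108 ± 13.6), Csf1 (51.3 ± 4.46), Il33 (47.5 ± 27.5), Cxcl14 (23.5 ± 9.79), Cxcl12 (9.58 ± 0.601) and Cx3cl1 (2.68 ± 0.853). Ccl7 and Ccl11 did not differ beyond their spread, nor did Csf1 and Il33 or Il33 and Cxcl14. The lowest Ccl11 value and the highest Ccl2 value were both 116. In TAC the order was Cxcl1 (523 ± 186), Il6 (283 ± 75.8), Ccl2 (130.0 ± 70.8), Ccl7 (108 ± 44.2), Il33 (52.0 ± 13.6), Ccl11 (50.1 ± 23.4), Csf1 (42.7 ± 2.88), Cx3cl1 (16.4 ± 1.32), Cxcl12 (8.88 ± 1.73) and Cxcl14 (8.70 ± 1.43). There, Cxcl1 and Il6 overlapped, as did Ccl2 and Ccl7, Ccl7 and Ccl11, and Cxcl12 and Cxcl14. Il33, Ccl11 and Csf1 overlapped as well. Cxcl1 stood at the 99.2 percentile of all tested genes in sham and the 99.1 percentile in TAC, and Il6 at 98.7 and 97.9. Cx3cl1 moved from the 13.9 to the 65.8 percentile, Cxcl14 from 74.3 to 47.3 and Ccl11 from 96.5 to 86.3, while Cxcl12 stayed near the middle at 49.8 and 48.0.

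Together Cxcl1 and Il6 made up 60.2 ± 1.48% of the summed RPKM of the 10 genes in sham and 66.1 ± 4.23% in TAC (SD, n = 3 each). With CPM in place of RPKM their share was 51.1% in sham and 53.4% in TAC, so its size and the group difference depend on the unit. Neither gene passed the test. The largest loss of share was that of Ccl11, which held 14.1%, 11.3% and 8.92% in sham replicates 1, 2 and 3 and 2.61%, 4.73% and 4.94% in TAC. The share of Ccl7 went from a mean of 12.2% to 8.62% with no overlap (at least 10.8% in sham and at most 10.1% in TAC). That of Ccl2 went from 7.31% to 10.3%, with overlap. Cx3cl1 remained a small part of the whole, at 0.147% to 0.210% in sham and 1.15% to 1.81% in TAC.

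**Figure D2:**
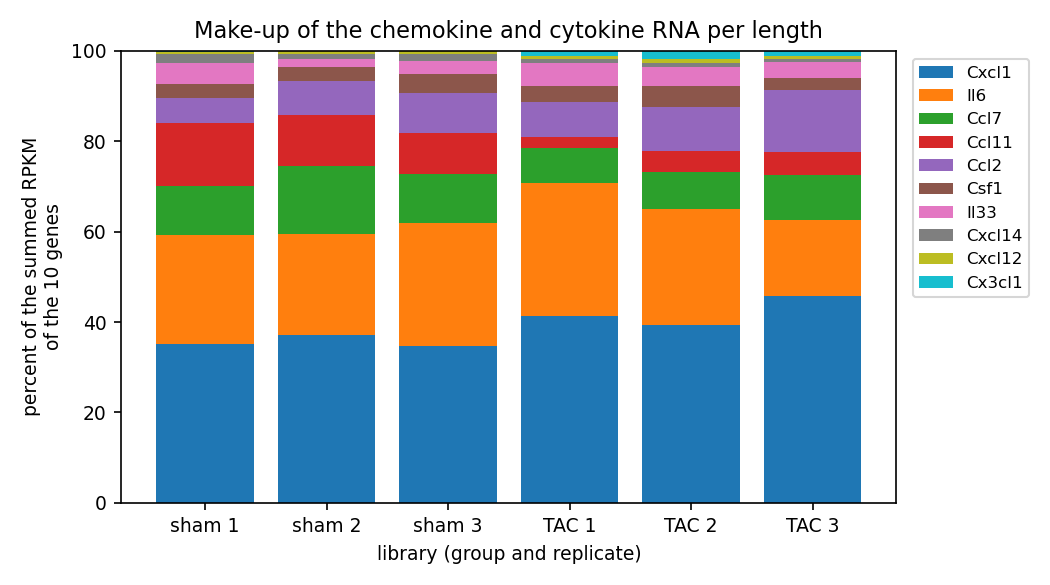
Share of each gene in the summed RPKM of the 10 genes, 1 bar per library, with genes stacked from the most to the least abundant in sham. Cxcl1 and Il6 fill 59.2% to 61.9% of the sham bars and 62.5% to 70.8% of the TAC bars, and the Ccl11 segment is narrower in every TAC bar.

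The promoter windows of 3 genes are printed to set the 2 most abundant members beside the 1 that rose. RefSeq windows (GRCm38.p6) were matched for 7 of the 10 genes: Csf1, Cx3cl1, Cxcl1, Cxcl12, Cxcl14, Il6 and Il33, the last with 2 start sites. Each run holds the 250 bases before the start site, 5′ to 3′ on the gene's strand, and capitals mark matches on either strand to GGG and CC set apart by any 5 bases, a loose form of the site bound by NF-kB, or to TATAAA, the TATA box. Overlapping matches are merged into 1 run of capitals. The windows are chr5:90890995-90891244 (plus strand) for Cxcl1, chr5:30012864-30013113 (plus) for Il6 and chr8:94771930-94772179 (plus) for Cx3cl1. The window of Cxcl14 lies within the RefSeq span of its gene and is left out here. The window of the second Il33 start site also lies within the span of its gene, but it is kept in the counts below.
Cxcl1: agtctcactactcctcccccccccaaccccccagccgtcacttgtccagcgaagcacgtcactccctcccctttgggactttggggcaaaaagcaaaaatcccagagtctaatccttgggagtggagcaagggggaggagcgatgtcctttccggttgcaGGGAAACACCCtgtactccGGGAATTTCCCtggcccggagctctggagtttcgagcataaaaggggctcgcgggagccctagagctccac
Il6: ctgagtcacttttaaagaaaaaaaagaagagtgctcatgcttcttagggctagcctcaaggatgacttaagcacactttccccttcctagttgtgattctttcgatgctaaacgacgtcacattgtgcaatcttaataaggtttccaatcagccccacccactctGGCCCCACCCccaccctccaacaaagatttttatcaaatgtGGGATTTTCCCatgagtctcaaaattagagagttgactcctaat
Cx3cl1: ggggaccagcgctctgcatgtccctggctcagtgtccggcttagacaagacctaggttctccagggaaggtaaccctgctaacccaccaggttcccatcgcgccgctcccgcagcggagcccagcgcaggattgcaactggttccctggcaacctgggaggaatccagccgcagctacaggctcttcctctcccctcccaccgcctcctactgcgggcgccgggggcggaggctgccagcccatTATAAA
The Cxcl1 window held 4 overlapping matches to the NF-kB form, with GGGAATTTCC starting 71 bases before the start site, and the Il6 window held 3, with GGGATTTTCC starting 44 bases before it. The Cx3cl1 window did not hold those letters. Among the other members, the Csf1 window held 4 matches and the Cxcl12 window 1, and both Il33 windows held none. Of all 32851 windows of that length, 45.8% held at least 1 match. TATAAA stood in the Cx3cl1 window and in both Il33 windows, against 12.4% of all windows. It began 6 bases before the start site for Cx3cl1, and 203 and 29 bases before it in the Il33 windows. The letters were searched at any position, so a match need not be a working TATA box. The letters TGANTCA, the site of AP-1 factors, were also searched and were found in the Il6 window alone among the 7 genes (6.75% of all windows). The windows also differed in CpG content: that of Cx3cl1 held 14 CpG dinucleotides, that of Cxcl1 held 10 and that of Il6 held 3, and the median over all windows was 6.

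The CC chemokine genes Ccl2, Ccl7 and Ccl11 lie side by side on chromosome 11 (GRCm38, 82035577 to 82037452, 82045712 to 82047525 and 82057832 to 82062955, all on the plus strand), with gaps of 8.26 and 10.3 kb. Ccl2 and Ccl7 attract monocytes through the receptor Ccr2, and Ccl11, eotaxin, attracts eosinophils through Ccr3. Ccl11 had 241, 163 and 113 CPM in sham replicates 1, 2 and 3 and 33.1, 38.9 and 74.9 CPM in TAC. Every TAC library was below every sham library, although the sham values spread more than 2-fold. Its log2 fold change was -1.82 ± 0.28 (SE; edgeR adjusted p of 0.000225), a 3.53-fold fall, and it passed with any 1 library left out (-2.25 to -1.51).

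Ccl7 had 150, 176 and 111 CPM in sham and 78.5, 54.7 and 124 CPM in TAC. TAC replicate 3 lay inside the sham range, so the groups overlapped. Ccl7 fell, and its log2 fold change was -0.77 ± 0.23 (SE; edgeR adjusted p of 0.0309). The call was lost without sham replicate 1 (adjusted p of 0.0765), sham replicate 2 (0.149), TAC replicate 1 (0.0647) or TAC replicate 2 (0.126), and was firmer without TAC replicate 3 (-1.13, adjusted p of 0.000925).

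Ccl2 had 75.6, 91.2 and 92.3 CPM in sham and 79.8, 65.2 and 170.0 CPM in TAC. Only TAC replicate 3 was above the sham libraries, and the log2 fold change of 0.28 ± 0.26 (SE) had an edgeR adjusted p of 0.5. Without that library it was -0.25 (adjusted p of 0.277), so its direction rested on that library. These 3 genes are related in sequence. The rule for reads with several matches was not given in the sources used here, so the split of reads among them is uncertain.

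Ratios of reads within a library do not depend on how libraries are scaled. These 4 ratios were chosen after the values had been seen. Ccl2 had 0.503, 0.518 and 0.834 reads per Ccl7 read in sham replicates 1, 2 and 3 and 1.02, 1.19 and 1.36 in TAC. Ccl7 had 0.622, 1.08 and 0.982 reads per Ccl11 read in sham and 2.37, 1.41 and 1.66 in TAC. The neighbours therefore shifted against each other in every TAC library, by 0.98 and 1.02 on the log2 scale. Ccl2 against Ccl11 shifted by 2.0, which follows from the ratios above and is no separate result. For each of these ratios the two-sided exact permutation p was 0.1, the smallest that 3 against 3 libraries allow. Because the ratios were picked with their values known, this p only restates that the groups did not overlap. The ratio of Cxcl1 to Il6 reads overlapped between the groups (1.04 to 1.35 in sham and 1.14 to 2.23 in TAC, exact permutation p of 0.5).

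**Figure D3:**
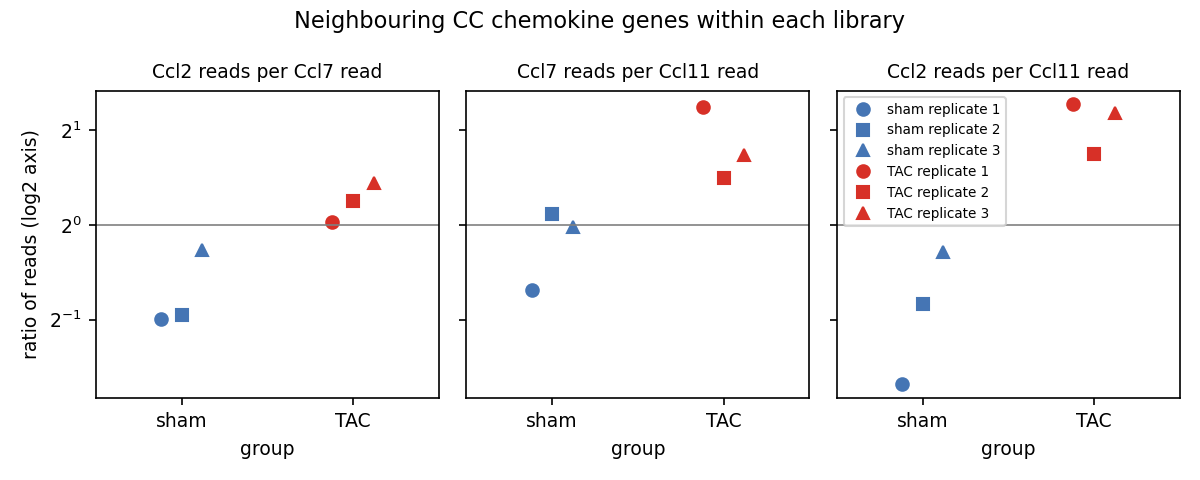
Ratios of reads between neighbouring CC chemokine genes within each library on a log2 axis, with sham in blue and TAC in red, and a grey line at equal reads. All TAC points lie above all sham points in each panel, and the Ccl2 to Ccl7 ratio lies above 1 in TAC and below 1 in sham.

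Of the CXC members, Cxcl14 fell while Cxcl1 and Cxcl12 did not pass. Cxcl14 (chromosome 13, 56288643 to 56296811) encodes a chemokine made by many epithelia and fibroblasts. It had 64.6, 30.0 and 34.2 CPM in sham and 19.0, 12.8 and 15.9 CPM in TAC, with no overlap, and sham replicate 1 stood well above the other sham libraries. The log2 fold change was -1.44 ± 0.26 (SE; edgeR adjusted p of 0.00116). Without sham replicate 1 it was -1.03, still past the threshold (adjusted p of 0.00969). The counts behind it were 58 to 129 in sham and 53 to 62 in TAC.

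Cxcl1 (chromosome 5, 90891245 to 90893121) attracts neutrophils through Cxcr2. It had 543, 486 and 395 CPM in sham and 473, 291 and 625 CPM in TAC. TAC replicates 2 and 3 lay on opposite sides of the sham range, and the log2 fold change was -0.04 ± 0.21 (SE; edgeR adjusted p of 0.924). Cxcl12 (chromosome 6, 117168535 to 117181368), the ligand of Cxcr4 that retains blood-forming and immune cells in tissues, had 51.1, 53.9 and 56.1 CPM in sham and 46.3, 42.6 and 61.0 CPM in TAC. Its log2 fold change was -0.11 ± 0.17 (adjusted p of 0.704), and its coefficient of variation in sham, 4.66%, was the lowest of the 10 genes.

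Cx3cl1 (chromosome 8, 94772180 to 94782427) encodes fractalkine, a chemokine on a mucin stalk that is anchored in the membrane and released by the proteases Adam10 and Adam17. It had 11.5, 7.77 and 5.95 CPM in sham and 50.3, 47.7 and 55.9 CPM in TAC. Every TAC library was over 4 times as high as the highest sham library, and the TAC libraries varied little (51.3 ± 4.19 CPM, SD, n = 3). The log2 fold change was 2.60 ± 0.23 (SE; edgeR adjusted p of 9.23e-07), a 6.07-fold rise, and it stayed between 2.40 and 2.89 with any 1 library left out. The sham values rest on 23, 15 and 12 counts, so the size of the fold change is less certain than its direction.

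Endothelial cells are another known source of Cx3cl1. The 12 endothelial markers in the files summed to 223 to 299 CPM in sham and 175 to 199 CPM in TAC. Of 7 tested, Erg rose by 2.97 on the log2 scale (edgeR adjusted p of 5.25e-05) and Tek and Esam fell, and Esam did not pass in 4 of the 6 fits with 1 library left out. The part of endothelial RNA in the rise of Cx3cl1 was not tested. Emcn had 0 counts in sham replicates 1 and 2 and Cldn5 in sham replicates 1 and 3 and TAC replicate 3. Of the proteases, Adam10 had 37.7 ± 4.72 CPM in sham and 40.0 ± 1.76 CPM after TAC, and Adam17 had 126 ± 16.8 and 123 ± 5.79 CPM. Neither passed, with edgeR adjusted p of 0.768 and 0.903. Cx3cr1, the receptor, had 0, 0 and 1 counts in sham and 3, 4 and 2 in TAC and was too low to test.

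Il6, Il33 and Csf1 did not pass the test. Il6 (chromosome 5, 30013114 to 30019975) had 455, 359 and 380.0 CPM in sham and 413, 234 and 280.0 CPM in TAC, with overlap through TAC replicate 1. Its log2 fold change was -0.37 ± 0.18 (SE; edgeR adjusted p of 0.169), and without TAC replicate 1 it was -0.63 with an adjusted p of 0.0114. Csf1 (chromosome 3, 107741048 to 107760469) had 228, 188 and 222 CPM in sham and 193, 159 and 181 CPM in TAC. The log2 fold change of Csf1 was -0.26 ± 0.14 (adjusted p of 0.204). Il33 (chromosome 19, 29925113 to 29960718) was the most variable in sham, at 199, 62.2 and 95.7 CPM, against 164, 89.9 and 137 CPM in TAC. Its log2 fold change was 0.13 ± 0.30 (adjusted p of 0.809) and its sign turned when sham replicate 2 (-0.19), sham replicate 3 (-0.02) or TAC replicate 1 (-0.08) was left out.

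**Figure D4:**
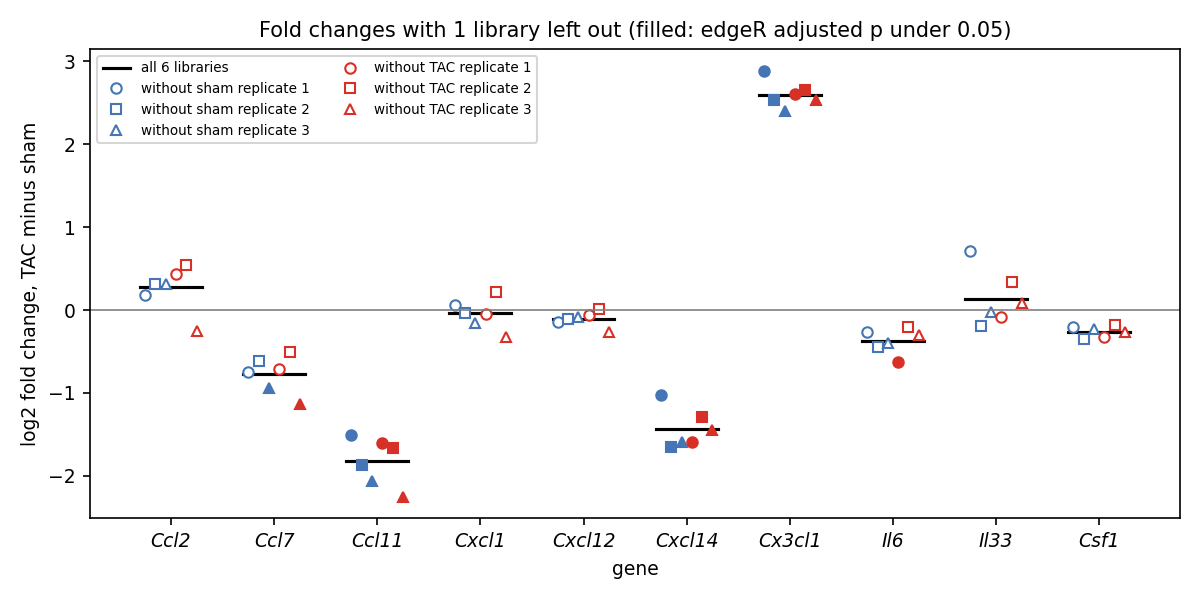
Log2 fold change of each gene from all 6 libraries (black bar) and with 1 library left out (symbols, in the colour of the group of that library), filled where the edgeR adjusted p was under 0.05. Cx3cl1, Ccl11 and Cxcl14 keep filled symbols throughout, Ccl7 has 2 filled symbols, and Ccl2, Cxcl1, Cxcl12 and Il33 have symbols on both sides of 0.

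Within a group, the same libraries were often the highest or the lowest for several members. TAC replicate 2 was the lowest TAC library for 9 of the 10 genes, all but Ccl11, against 28.8% of all genes tested. TAC replicate 3 was the highest for 6 of 10, Ccl2, Ccl7, Ccl11, Cx3cl1, Cxcl1 and Cxcl12 (39.1% of all genes tested), and TAC replicate 1 was the highest for Cxcl14, Il6, Il33 and Csf1. In sham, replicate 1 was the highest for 7 of 10 (34.5% of all genes tested). The coefficient of variation in TAC was 54.0% for Ccl2, 46.2% for Ccl11 and 41.3% for Ccl7, but 8.17% for Cx3cl1 and 9.70% for Csf1.

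Macrophage and monocyte markers were also highest in TAC replicate 3. The 18 markers in the files summed to 43.1, 20.7 and 24.3 CPM in sham replicates 1, 2 and 3 and to 59.8, 51.5 and 159 CPM in TAC (two-sided exact permutation p of 0.1, the smallest possible). Of 8 tested, 4 rose, Lyz2 (listed as Lyz), C1qb, C1qc and Mrc1, of which only C1qb passed without sham replicate 2. Among TAC libraries, all 8 were highest in replicate 3. Of all genes tested, 8.28% rose and 39.1% were highest in that TAC library. The pan-leukocyte gene Ptprc was at 0 counts in every sham library and at 7, 9 and 17 counts in TAC replicates 1, 2 and 3, and Aif1 had 0 in sham. Ccl2, Ccl7 and Ccl11 are highest in the same TAC library, and the part of leukocyte RNA in those values was not tested. Without it Ccl11 and Ccl7 fell further, as given above. Neutrophil and mast cell markers summed to between 2.07 and 5.12 CPM in all libraries, and S100a8 and Retnlg had 0 counts throughout.

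Other cell types in the sort moved with the operation too. For the counts below, 10.4% of all genes tested fell and 8.28% rose. Pericyte and smooth muscle markers summed to 2875.5 to 4712.2 CPM in sham and 1117.7 to 2460.3 CPM in TAC (4 of 12 fell, Kcnj8, Abcc9, Myh11 and Vtn). Myh11 did not pass without sham replicate 3 (-0.55 against -1.26 with all libraries) or TAC replicate 3 (-0.99), nor with DESeq2 or on log2 RPKM. Schwann cell markers summed to 81.3 to 99.7 CPM in sham and 39.7 to 54.0 CPM after TAC (4 of 5 tested fell, among them Sox10, Mbp and Cdh19). Sox10 lost its call in 5 of the 6 left-out fits and Mbp in 3. Epicardial and mesothelial markers summed to 414 to 644 and 372 to 465 CPM, and of 9 tested Upk3b, Muc16 and Lrrn4 fell and Aldh1a2 rose. Upk3b and Lrrn4 did not pass on log2 RPKM or without sham replicate 2, sham replicate 3 or TAC replicate 1. Their part in the falls of Ccl11, Cxcl14 and Ccl7 was not tested. Cardiomyocyte markers summed to 149 to 346 CPM in sham and 207 to 426 CPM in TAC, and all 9 were highest among TAC libraries in replicate 3 (Nppa rose and Pln fell).

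Of 17 receptors of the members, 9 were high enough to test, 5 fell and none rose, against 10.4% falls over all genes tested. The median log2 fold change of the 9 was -0.64. The falls were in scavenging receptors and in the Il6 receptor chains. Ackr3 (listed as Cxcr7), which binds and removes Cxcl12, had 471, 492 and 547 CPM in sham and 225, 219 and 267 CPM after TAC. Its log2 fold change was -1.09 ± 0.14 (SE; edgeR adjusted p of 4.06e-05). It was the most abundant chemokine receptor in these cells in counts. Ackr2 (listed as Ccbp2), which clears inflammatory CC chemokines such as Ccl2, Ccl7 and Ccl11, fell with -1.69 ± 0.24 from 40.6, 71.0 and 91.8 CPM in sham to 19.3, 19.8 and 23.8 CPM in TAC. Ackr1 (listed as Darc), known from venules and red cells, had 5.99 to 15.5 CPM as group means and fell as well (-1.39 ± 0.33). Ackr4 (listed as Ccrl1) had 48.9 ± 19.5 and 68.9 ± 10.5 CPM and did not pass (adjusted p of 0.130).

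Il6ra, the chain that binds Il6, fell most among the receptors. It had 56.1, 72.0 and 70.9 CPM in sham and 17.8, 14.4 and 19.8 CPM in TAC. This is a log2 fold change of -1.94 ± 0.19 (SE; edgeR adjusted p of 2.2e-06). Il6st, the shared signalling chain gp130, fell less, with -0.64 ± 0.13 (adjusted p of 0.00342) from 1198 ± 72.8 to 769 ± 36.5 CPM. All of these 5 falls passed with any 1 library left out. Il1rap, the accessory chain for Il33, did not pass (-0.24 ± 0.21), nor did Csf1r (1.10 ± 0.50, with 3.68, 6.52 and 15.0 CPM in TAC) or Cxcr4 (0.07 ± 0.46, at 2.15 to 6.31 CPM). The leukocyte receptors were nearly absent: Ccr3 and Cxcr1 (listed as Il8ra) had 0 counts in all libraries, and Ccr1, Ccr2, Cx3cr1, Cxcr2 (listed as Il8rb) and Il1rl1 had at most 6 counts in any library.

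**Figure D5:**
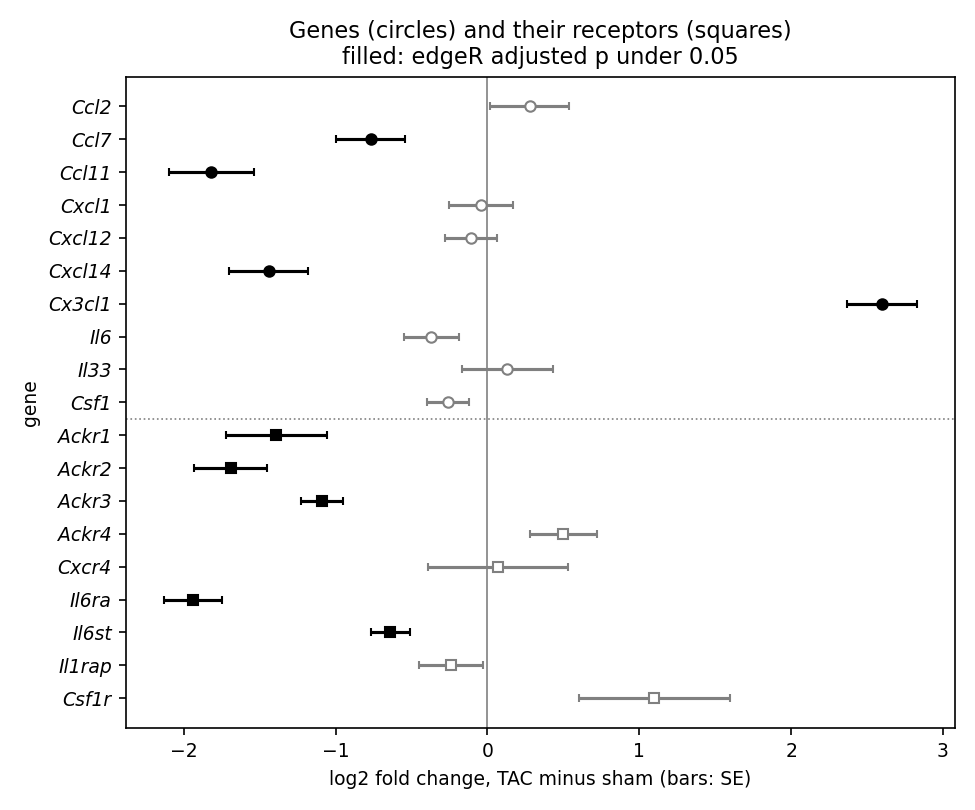
Log2 fold change, TAC minus sham, with its SE for the 10 genes (circles) and the 9 tested receptors (squares), filled where the edgeR adjusted p was under 0.05. Cx3cl1 is the only filled point right of 0, and the 5 filled receptors lie between -1.94 and -0.64.

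Genes that shed, cut or hold the members moved in both directions, 3 up and 2 down of 14 tested (median log2 fold change of 0.14). The shares over all genes tested were 8.28% up and 10.4% down. Dpp4, a membrane peptidase that trims Cxcl12 and Ccl11, fell with -1.56 ± 0.22 (SE; edgeR adjusted p of 0.000113) from 63.8 ± 21.1 to 21.5 ± 3.66 CPM (SD, n = 3). Among heparan sulfate carriers, which hold chemokines at cell surfaces, Sdc1 rose by 1.12 ± 0.21 and Sdc4 fell with -0.71 ± 0.17. Sdc4 did not pass without sham replicate 3 (-0.49, adjusted p of 0.0578). Ext1, a heparan sulfate polymerase, rose by 0.52 ± 0.13 but not without sham replicate 2 (0.51, adjusted p of 0.0529), and Mmp14, a membrane protease, rose by 0.69 ± 0.14.

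In the list of NF-kB and Il6 family signalling, 10 of 32 tested genes fell and 2 rose, Vcam1 and Tlr2 (median log2 fold change of -0.19). Neither rise passed without sham replicate 2 or sham replicate 3. Over all genes tested, 10.4% fell and 8.28% rose. Socs3, the feedback inhibitor induced by gp130 signalling, fell from 551 ± 28.4 to 205 ± 12.9 CPM (SD, n = 3), with -1.43 ± 0.13 (SE; edgeR adjusted p of 1.44e-06). Cebpd, a transcription factor of acute phase genes, fell with -1.25 ± 0.15, and the lipopolysaccharide receptor Tlr4 with -0.99 ± 0.15. The adaptor Myd88 (-1.11 ± 0.22), Irf1 (-0.87 ± 0.17) and Birc3 (-0.83 ± 0.19) fell too, and these 6 passed with any 1 library left out. Nfkb1, Rela and the feedback gene Nfkbia did not pass, with log2 fold changes of 0.00 ± 0.15, -0.07 ± 0.15 and -0.04 ± 0.25. Of 10 genes for decay of cytokine mRNA, 3 fell: Zfp36 (-0.91 ± 0.15), which encodes tristetraprolin, Zfp36l1 (-0.53 ± 0.14) and Zc3h12a (-0.90 ± 0.25), which encodes a ribonuclease acting on Il6 mRNA. Zfp36l1 did not pass without sham replicate 2 or TAC replicate 2, nor Zc3h12a without sham replicate 1 or TAC replicate 2.

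Immediate early and heat shock genes respond to cell handling as well as to signals, as Il6, Cxcl1 and Ccl2 are known to do. Of 25 tested, 14 fell and 3 rose, Egr2, Egr3 and Ier3, against 10.4% falls and 8.28% rises over all genes tested. Junb is also in the list of NF-kB and Il6 family signalling, so its fall is counted in both. The 25 genes summed to 18584.8 to 19370.8 CPM in sham and 10682.6 to 11729.5 CPM in TAC. Atf3 fell with -1.49 ± 0.16 (SE; edgeR adjusted p of 7.14e-06), Ier5 with -0.99 ± 0.14, Fosb with -0.95 ± 0.16, Egr1 with -0.92 ± 0.15, Btg2 with -0.88 ± 0.13 and Fosl2 with -0.85 ± 0.16. None of the 3 rises passed with every library left out in turn, nor did 4 of the 14 falls, Jun and Dusp1 (lost in 4 of 6 fits each) and Junb and Jund (in 1 each). The part of handling in the levels of the chemokines was not tested.

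Outside the 10 genes, few chemokines were high enough to test. Of 5 tested CC genes, Ccl9 rose and Ccl21b fell, and of 5 tested CXC genes, Cxcl2 and Cxcl13 rose. Cxcl2 lies next to Cxcl1 on chromosome 5 and acts on the same receptor. It had 13.0, 6.73 and 2.48 CPM in sham and 19.9, 11.9 and 25.9 CPM in TAC, which overlap, and its log2 fold change was 1.36 ± 0.40 (SE; edgeR adjusted p of 0.0275). It did not pass without sham replicate 2, sham replicate 3 or TAC replicate 3 (1.28, 0.93 and 1.08). Ccl9 (2.04 ± 0.56) was highest in TAC replicate 3, at 15.6 CPM, and did not pass without that library (1.56, adjusted p of 0.0753), nor without sham replicate 2 or sham replicate 3 (1.69 and 1.67). The value of Cxcl13 (2.56 ± 0.76) came from TAC replicate 2, with 143 counts against 10 and 24 in the other TAC libraries. It did not pass without any 1 of the sham libraries. Ccl21b (-1.24 ± 0.40) has near-identical copies, its row matched that of Ccl21c almost read for read, and it passed only without TAC replicate 3 when 1 library was left out. Cxcl10, with 54.6 ± 20.8 CPM in sham and 67.0 ± 13.9 CPM after TAC, did not pass (adjusted p of 0.391).

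Among other cytokines tested, Lif rose and Kitl fell. Lif belongs to the family that signals through gp130, as Il6 does. It had 7.01, 6.22 and 10.9 CPM in sham and 24.5, 19.6 and 50.5 CPM in TAC, a log2 fold change of 1.95 ± 0.36 (SE; edgeR adjusted p of 0.00122). Without TAC replicate 3 it was 1.44 (adjusted p of 0.00232). Kitl, the ligand of the receptor Kit, fell with -0.92 ± 0.20 (adjusted p of 0.0039) from 63.0 ± 8.16 to 33.2 ± 8.96 CPM (SD, n = 3).

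For each member that passed, the 3 genes with the most similar pattern were found over the 6 libraries, as the root mean square difference of centred log2 CPM among 9255 genes with a mean of at least 10 CPM. Nearest to Cx3cl1 were Fn1, fibronectin (difference of 0.19), 1500015O10Rik (current symbol Ecrg4, 0.21) and Lox, lysyl oxidase (0.22). Fn1 rose from 1035.7 ± 279 to 5886.6 ± 643 CPM, so a gene over 100 times as abundant in CPM had nearly the same relative profile. Nearest to Cxcl14 were Igfbp3 (0.19), 2900041A09Rik (current symbol Tppp, 0.20) and Lonrf3 (0.20). Nearest to Ccl7 were Stat5a (0.14), Rarres2, which encodes the chemoattractant chemerin (0.18), and Bcl3 (0.20). Of these, Rarres2 fell (edgeR adjusted p of 0.0325), while Stat5a and Bcl3 did not pass. Ccl11 had no close neighbour: the nearest rows, 3 numbered loci on chromosome 4 (LOC100039331, LOC100042472 and LOC100039323), differed by 0.30 each.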

How the data were processed

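RNA of Thy1+HE- cells was sequenced as single 50-base reads after a TruSeq v2 library preparation, per the labels' protocols. Per the file headers, NextGENe 2.3.3 made the reports that the authors deposited, 1 per library, with read counts per gene and RPKM. The submitters' processing notes name mm10 and Partek 6.6. Aligner settings and annotation are not given in the sources used here. The RPKM were deposited per kilobase of row length and scaled to a total of 98.68% to 98.93% of the library's counts.

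The deposited counts of 26459 rows were summed per symbol. The groups were compared in R 4.3.3 with edgeR 4.0.16 (filterByExpr, TMM scaling, quasi-likelihood test, two-sided, Benjamini-Hochberg over 12612 genes, threshold 0.05). CPM use the TMM library sizes, and SE come from the F statistic. Single values were compared by exact permutation over libraries. On simulated counts with 12073 genes tested, the test recovered 49 of 100 genes simulated with a 2-fold change, 96 of 100 with a 4-fold change, and made 7 false calls. The simulation gave every gene the same dispersion between libraries and held no outlying library. These figures therefore need not hold for the real libraries.

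The members and gene lists were chosen with earlier results of these data known. All members are named. From each other list up to 6 called genes were named, or the 2 most abundant where none was called. Other genes of those lists, such as Adam10, Adam17, Nfkb1, Rela, Nfkbia, Cxcl10, Vcam1, Tlr2, Egr2, Egr3, Ier3, Jun, Junb, Jund and Dusp1, and those listed by counts, were named after their values were seen. A few genes of the lists are not reported here. Listed genes were matched by current symbol, an older symbol or a unique RefSeq synonym. Alternatives used DESeq2 1.42.0, limma 3.58.1 (voom, and log2 of RPKM plus 1 or 0.1), other scalings and filters, thinning, a replicate block and left-out libraries. A fit without the rows LOC672857 and Lars2 was added.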

Additional observations from a re-analysis of the deposited data

How the results depend on the processing

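The 18 alternatives included fits without LOC672857 and Lars2 and without both libraries numbered 3 (Ccl11 at -2.48). These were not planned in advance. Over all 18 alternatives, Cx3cl1 (2.26 to 2.89), Ccl11 (-2.48 to -1.51) and Cxcl14 (-1.65 to -1.03) kept their direction and passed throughout. Ccl7 fell in all of them but did not pass on log2 RPKM (-0.82 with either pseudocount, adjusted p of 0.0540 with 1 and 0.0598 with 0.1) or in 4 of the 6 fits with 1 library left out (-1.13 to -0.51). The cause was not tested. Signs turned only for genes that did not pass. Cxcl1 was at 0.01 under upper quartile scaling and 0.01 with no low-count filter, and -0.32 to 0.22 with 1 library left out. The same range was -0.25 to 0.54 for Ccl2, -0.19 to 0.71 for Il33 and -0.27 to 0.01 for Cxcl12. Without both libraries numbered 3, an alternative chosen after seeing the data, Ccl2 was at -0.21 and Il33 at -0.05.

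Over all genes, 2353 passed, and 1454 to 2261 with 1 library left out, fewest without sham replicate 2. Upper quartile scaling turned the balance, with 1240 genes higher and 1139 lower against 1044 and 1309, as did no low-count filter, with 1579 and 1307. Whether the replicate numbers pair the libraries is not known. Same-numbered deviations correlated at 0.082, 0.025 and -0.086 over the genes tested, and not every library correlated best with its own number. With so few libraries such weak correlations cannot exclude pairing. With the replicate block 2346 genes and 4 members passed, as before for the members. The SE was then smaller for Ccl2, Cxcl1, Cxcl14, Il6 and Il33 (0.17 against 0.30 for Il33). It was slightly larger for Ccl7 and Cx3cl1 and unchanged for Ccl11, Cxcl12 and Csf1. Il6 came closer to the threshold, with an edgeR adjusted p of 0.0588 against 0.169. With TAC replicate 3 left out the macrophage marker sum was still higher in TAC, and over the left-out libraries the difference was 26.3 to 80.1 CPM. Low counts in sham limit the precision for Cx3cl1 and the leukocyte receptors.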

Other observations

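Several chemokine genes were too low to test and are given here as counts in sham replicates 1, 2 and 3 and then TAC replicates 1, 2 and 3. Cxcl9, a target of interferon gamma, had 3, 5 and 0 counts in sham and 18, 14 and 13 in TAC. Cxcl3 (listed as Gm1960), a neighbour of Cxcl1, had 2, 5 and 0 counts in sham and 15, 10 and 18 in TAC. Ccl6 had 1, 0 and 0 in sham and 5, 6 and 5 in TAC, and Ccl17 had 0, 0 and 1 in sham and 8, 3 and 4 in TAC. The TAC libraries are deeper, and 3 counts are worth more CPM in sham than in TAC. Pf4 (listed as Cxcl4), a platelet chemokine, had 24 counts in TAC replicate 3 and at most 5 elsewhere. Ccl1, Ccl20, Ccl24 and Ccl26 (listed as Ccl26l) had 0 counts in all 6 libraries.

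Among cytokines that could not be tested, Il1rn, the interleukin 1 receptor antagonist, had 28 counts in TAC replicate 3 and at most 7 elsewhere, and Il1b had 23 there and at most 12 elsewhere. Csf2 had 9 counts in TAC replicate 3 and at most 1 elsewhere. Ifng, Ifnb1, Il17a and Il25 had 0 counts in all 6 libraries.

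Complement genes, another group of secreted immune factors of these cells, mostly fell. Of 9 tested, 5 fell and 1 rose, Cfb (median log2 fold change of -0.55), against 10.4% falls and 8.28% rises over all genes tested. C7, a component of the membrane attack complex, fell from 368 ± 41.1 to 81.9 ± 7.79 CPM (SD, n = 3; edgeR adjusted p of 6.15e-08) and C3 from 3456 ± 724 to 1881.5 ± 363 CPM. C1s and Serping1 also fell, though neither passed without sham replicate 1, sham replicate 2 or TAC replicate 2. Cfb did not pass without TAC replicate 3 (log2 fold change of 0.68, adjusted p of 0.122), nor without sham replicate 2 or sham replicate 3.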
